A study of Mus musculus with 8 samples.

Results

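Genes enriched in B-1 cells were followed in splenic B cells of mice that lack the transcription factor Irf4. The group held 6 genes, Cd5, Spn, Bhlhe40, Bhlhe41, Zbtb32 and Tppp3, listed for their enrichment in B-1 cells, by a choice made with earlier results of these arrays known. All probe sets that the array annotation assigns to 1 of these genes alone were taken, 9 probe sets of the 45101 in the table. The arrays compared irf4-/- mice (Irf4 null, n = 4 arrays) with irf4+/+ littermates (wild type, n = 4 arrays). All were C57BL/6 mice of 12 weeks, and in every case non-B cells had been removed from spleen cells with magnetic beads. The labels do not give the deleted part of Irf4, the sex of the mice or whether each array came from a separate mouse, so p-values reflect only how these 8 arrays vary, and part of that may be technical.

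B-1 cells are innate-like B cells that renew themselves in the body cavities, make much of the natural IgM of serum and form a small minority of the B cells in spleen. The B-1a subset carries CD5 on its surface, and B-1 cells also carry CD43, the product of Spn, which resting follicular B cells largely lack. Both surface proteins are found on other leukocytes too: CD5 on nearly all T cells, and CD43 on T cells, NK cells, neutrophils and monocytes. BHLHE40 and BHLHE41 are related basic helix-loop-helix proteins that bind E-boxes in DNA and repress transcription, and BHLHE41 is known to be needed for normal numbers of B-1a cells.

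Signals are MAS5 intensities on a linear scale, and differences are Irf4 null minus wild type on the scale log2(signal + 16). The targeted gene was lower on all Irf4 null arrays: the brighter Irf4 probe set averaged 276 ± 31.3 (SD) there, against 1969 ± 283 in wild type (limma, adjusted p = 4.61e-06). Of 8 B cell markers 7 had a single-gene probe set and none of the 7 differed between genotypes past the threshold (limma, adjusted p 0.05). The smallest p among them were those of the transcription factor gene Ebf1 (-0.20, adjusted p = 0.405) and of Cd79b, a chain of the B cell receptor, which averaged 23044 ± 1464 (SD) in wild type against 21593 ± 1997 (adjusted p = 0.601). The RNA Xist, which is made from the inactive X chromosome of females, was high (17119 to 19652) on wild-type arrays 1, 3 and 4 and Irf4 null array 1. The other 4 arrays, Irf4 null 2, 3 and 4 and wild type 2, were low at 49.2 to 94.8. Eif2s3y, a gene of the Y chromosome, ran the other way on its brighter probe set. It read 3.31 to 25.4 on the 4 Xist-high arrays and 3216 to 4530 on the 4 Xist-low arrays. Its second probe set was dim on all arrays (1.79 to 40.4). By both genes the Xist-high arrays read as female and the Xist-low arrays as male, although the labels do not give sex. The Xist-low arrays also held more RNA of other blood cells: the mean of 62 marker genes was 7.68 to 8.09 (log2) on the 4 Xist-high arrays and 8.74 to 9.49 on the 4 Xist-low arrays. Genotype, Xist and these markers are therefore partly entangled, and each member is given within both kinds of array. Of the 4 Xist-high arrays 1 is Irf4 null and of the 4 Xist-low arrays 1 is wild type, so in each of these fits a single array, assumed to vary like the others, stands for its genotype.

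Of the 6 members Bhlhe40 alone passed the threshold. It rose, and all Irf4 null arrays lay above all wild-type arrays. Of the 9 probe sets 7 lay above the filter on dim signals, which removed the lowest 40% of all probe sets, and at least 1 of the 7 belonged to each of the 6 genes. Of these 7, 1 was called higher and 0 lower (limma, adjusted p below 0.05), against 2.01% called higher and 1.51% called lower of all 27022 probe sets tested. An unadjusted p below 0.05 was reached by 4 of the 7, against 17.1% of all. Signals of all 4 Irf4 null arrays lay above all 4 wild-type arrays for 2 of the 7, Bhlhe40 and Zbtb32, against 5.48% of all probe sets, and below them for 0 of the 7, against 5.33%. The estimate was positive for 6 of the 7, against 50.6% of all. When the fit also held Xist-high, 1 of the 7 was called higher, again Bhlhe40, and 0 lower, against 1.41% and 0.947% of all. With the brightest probe set of each gene the median difference of the 6 genes was 0.87, and the median over all probe sets tested was 0.0030. Since these are RNA preparations of many cells, more B cells of a subset and more RNA in each cell cannot be told apart.

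**Figure D1:**
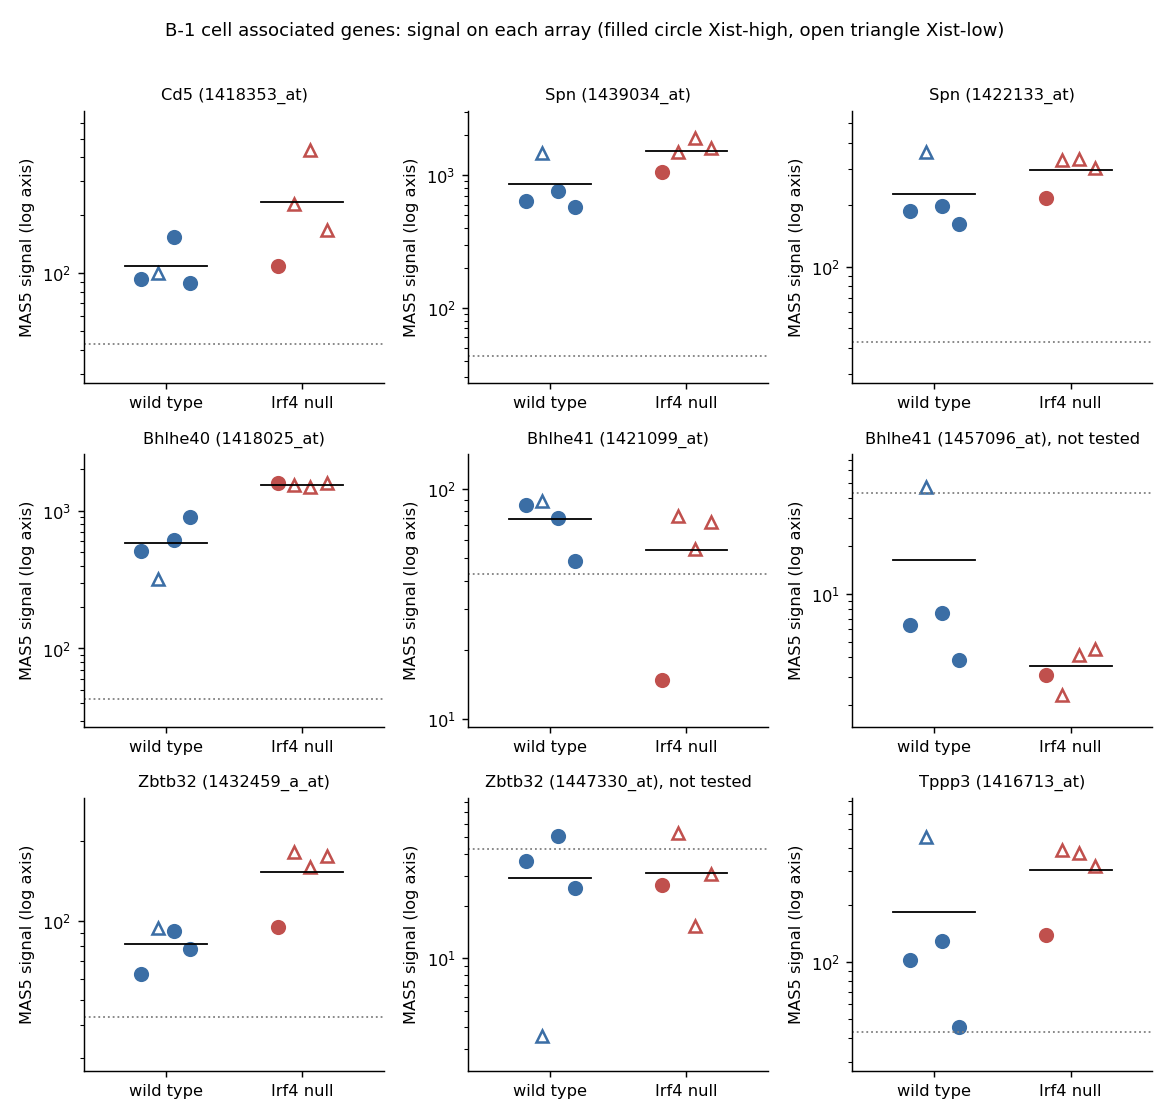
Signal of each of the 9 member probe sets on each array (log axis) by genotype, with filled circles for Xist-high and open triangles for Xist-low arrays, a black line at the mean of each group and a dotted line at a signal of 42.9, the limit of the dim filter. The 4 Irf4 null arrays of Bhlhe40 sit between 1477 and 1604, above all wild-type arrays, and the Spn and Tppp3 signals of wild-type array 2 lie with those of the Irf4 null arrays.

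Bhlhe40, the E-box repressor that is induced by many activating signals in lymphocytes, read 507, 319, 618 and 897 on wild-type arrays 1 to 4. It read 1604, 1536, 1477 and 1586 on Irf4 null arrays 1 to 4. The lowest Irf4 null array thus stood well above the highest wild-type array, and the groups did not overlap. Bhlhe40 rose by 1.47 ± 0.24 (SE), a fold of 2.77 on the log2(signal + 16) scale with a 95% interval of 1.93 to 3.98 (limma, adjusted p = 0.00659). It ranked at place 280 of 27022 by p. Its spread differed between the groups: the SD of its log2 values was 0.60 in wild type and 0.053 in Irf4 null. Of all tested probe sets 93.8% had an SD at or below the first value in wild type, but only 4.02% had one at or below the second in Irf4 null, given here as a description without a test.

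The mean of the 62 markers of other blood cells was 7.68, 9.16, 7.93 and 7.76 (log2) on wild-type arrays 1 to 4 and 8.09, 9.28, 9.49 and 8.74 on Irf4 null arrays 1 to 4, so that the genotypes overlapped. The platelet list within it did not overlap, at 8.07 to 8.65 in wild type and 8.76 to 9.14 in Irf4 null, with summed signals of 2396 to 3325 and 3725 to 5787. The part of either in the Bhlhe40 difference was not tested beyond the following fits. With the mean of the 62 markers as a covariate the Bhlhe40 difference was 1.80 (limma, adjusted p = 0.00176), and with Xist-high as a term it was 1.74 ± 0.22 (adjusted p = 0.00174). Within the 4 Xist-low arrays, where the wild-type array is the one with the lowest Bhlhe40 signal, it was 2.21 (adjusted p = 0.00323). Within the 4 Xist-high arrays it was 1.27 and did not pass (adjusted p = 0.0593). Markers of marginal zone B cells, the splenic subset that answers blood-borne antigens, were also higher in Irf4 null. Of 8 such markers 6 were called higher, against 2.67% of all 11802 genes by their brightest probe set, and the list mean was 10.40 to 10.98 (log2) in wild type and 11.74 to 11.98 in Irf4 null. Their summed signal was 20428 to 24907 and 39797 to 46094, and their part in the Bhlhe40 difference was not tested. Among wild-type arrays the list mean was highest on array 2, where Bhlhe40 was lowest. The summed signal was highest on array 4 (24907), where Bhlhe40 was highest.

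The genes whose pattern over the 8 arrays was most like that of Bhlhe40 were Mccc2, an enzyme subunit of leucine breakdown, Bcl9, a coactivator of Wnt signalling, and Dmd, the dystrophin gene. Pearson r with Bhlhe40 was 0.985 for Mccc2, 0.978 for Bcl9 and 0.976 for Dmd over 8 arrays of 2 genotypes. All 3 were called higher in Irf4 null, Mccc2 by 0.45 (adjusted p = 0.0426), Bcl9 by 0.44 (adjusted p = 0.0331) and Dmd by 1.21 (adjusted p = 0.0355). These are the best of 11802 genes, so such values describe a likeness and carry no test. BHLHE40 and BHLHE41 are known to repress clock genes through E-boxes. Of 13 circadian E-box genes 11 were tested, and their median difference was -0.026. Of these 11, 1 was called higher and 0 lower, against 2.67% and 1.7% of all 11802 genes. The one was Per3, a period gene of the clock, which rose by 0.73 ± 0.16 (adjusted p = 0.0316), from 119 to 207. With the Xist-high term Per3 was at 0.78 and did not pass (adjusted p = 0.0604).

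Bhlhe41, the second E-box repressor and the one tied most closely to B-1a cells, was dim and did not pass the test. Its brighter probe set read 84.98, 88.3, 75.02 and 48.5 in wild type. It read 14.8, 76.3, 54.7 and 72.2 in Irf4 null. The groups overlapped, and Irf4 null array 1 stood far below the other 7 arrays. The difference was -0.45 ± 0.35 (SE), with a 95% interval of -1.21 to 0.31 (limma, adjusted p = 0.571). With Xist-high in the model it was -0.89 ± 0.31, with an interval of -1.57 to -0.20, and did not pass (adjusted p = 0.211). It was -1.45 within the Xist-high arrays (adjusted p = 0.212) and -0.33 within the Xist-low arrays (adjusted p = 0.806). Without Irf4 null array 1 the 2-group difference was -0.093 (adjusted p = 0.896). The second Bhlhe41 probe set lay below the dim filter, with 3.86 to 7.62 on 3 wild-type arrays, 47.1 on wild-type array 2 and 2.33 to 4.54 in Irf4 null. The genes most like the brighter Bhlhe41 probe set over 8 arrays were Kif7, a kinesin of Hedgehog signalling (r = 0.962), Nags, an enzyme that starts the urea cycle (r = 0.955), and Tcerg1l (r = 0.955), and each was dim too, with group means of 52.6 to 93.5. None of the 3 was called (limma, adjusted p = 0.439, 0.737 and 0.773). The table holds no detection calls, so how far dim signals such as those of Bhlhe41 and Zbtb32 stand above background is not known.

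The Bhlhe41 promoter holds the E-box CACGTG that proteins of this family bind, and it is shown because the repressor's own motif lies before its gene. The 300 bases around each start, 250 before and 50 after, were searched on both strands in the RefSeq promoters of GRCm38.p6, which hold 5 promoters for 4 of the members (Cd5, Spn, Bhlhe41 and Zbtb32, the last with 2). Bhlhe40 and Tppp3 were not matched. CACGTG occurred in 1 of the 5 and in 7.15% of all 32851 promoters. Bhlhe41 is a gene of the minus strand, on which the sequence is printed. Its match lies at chr6:145865568-145865573 and ends 148 bases before the start. It is in capitals within a stretch of 126 bases, chr6:145865508-145865633.
Bhlhe41: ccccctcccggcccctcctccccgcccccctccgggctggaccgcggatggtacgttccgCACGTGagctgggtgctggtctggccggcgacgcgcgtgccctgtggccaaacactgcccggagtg
A match of letters describes the sequence and does not show binding in these cells.

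Letters that IRF proteins bind were searched in the same windows, since Irf4 is the deleted gene. GAAANNGAA, the core of the interferon response element, occurred in 0 of the 5 member promoters and in 8.56% of all. GGAANNGAA, the core of the composite element for an Ets factor and an IRF protein, occurred in 1 of the 5 and in 8.24% of all. Both of its matches lay before Spn, a gene of the minus strand. The first lies at chr7:127138055-127138063. The second, at chr7:127137836-127137844, reads in the direction opposite to the gene. The matches begin 240 and 21 bases before the start. They are printed with 10 bases on either side (chr7:127138045-127138073 and chr7:127137826-127137854) and the match in capitals, and neither overlaps a match of another motif.
Spn, first match: agcaagggagGGAAAGGAAacggttctcc
Spn, second match: caagacccacTTCCTTTCCccctggggct

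Zbtb32, a zinc finger repressor of the BTB family found in activated lymphocytes, was higher on every Irf4 null array without passing the threshold. The brighter of its probe sets gave wild-type signals of 62.8, 93.5, 91.5 and 77.7 and Irf4 null signals of 94.3, 183, 160 and 176. Irf4 null array 1 was barely above the highest wild-type array, and the other Irf4 null arrays were well above it. The difference was 0.77 ± 0.22 (SE), with a 95% interval of 0.29 to 1.26 (limma, adjusted p = 0.0888). Without Irf4 null array 1 it was 0.97 and passed (adjusted p = 0.027). In the fit with Xist-high it was 0.52 ± 0.21 (adjusted p = 0.3), and it was 0.25 within the Xist-high (adjusted p = 0.844) and 0.78 within the Xist-low arrays (adjusted p = 0.315). The second Zbtb32 probe set lay below the dim filter, with 3.59 to 51.2 in wild type and 15.4 to 52.6 in Irf4 null, and the difference of 0.14 ± 0.39 could not separate the groups.

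Zbtb32 is a gene of activated lymphocytes, and markers of proliferating cells are given beside it. Of 9 tested 1 was called higher in Irf4 null, against 2.67% of all 11802 genes. It was Nusap1, a spindle gene, which rose by 1.13 ± 0.25 (limma, adjusted p = 0.0336). The mean of the list was 8.37 to 9.94 (log2) in wild type and 9.26 to 10.2 in Irf4 null, and the summed signal 3365 to 10671 and 6233 to 13636. On wild-type array 2 the list mean was close to those of Irf4 null arrays 2, 3 and 4, whereas Zbtb32 read 93.5 there and 160 to 183 on those 3 arrays. For both the list and Zbtb32, array 2 was the highest of wild type and array 1 the lowest of Irf4 null. Of the 9 markers 7 were called lower on Xist-high arrays, against 2.89% of all genes. Zbtb32 was lower there too without passing (-0.51 ± 0.21, limma, adjusted p = 0.335). The part of these cells in the Zbtb32 difference was not tested. The genes most like Zbtb32 over the 8 arrays were Cdca7l, a gene tied to the cell cycle (r = 0.974), Gfpt1, the first enzyme of hexosamine synthesis (r = 0.971), and Fam72a (r = 0.963). Cdca7l rose by 0.78 (adjusted p = 0.0164), while Gfpt1 (0.29, adjusted p = 0.0806) and Fam72a (0.45, adjusted p = 0.207) did not pass.

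**Figure D2:**
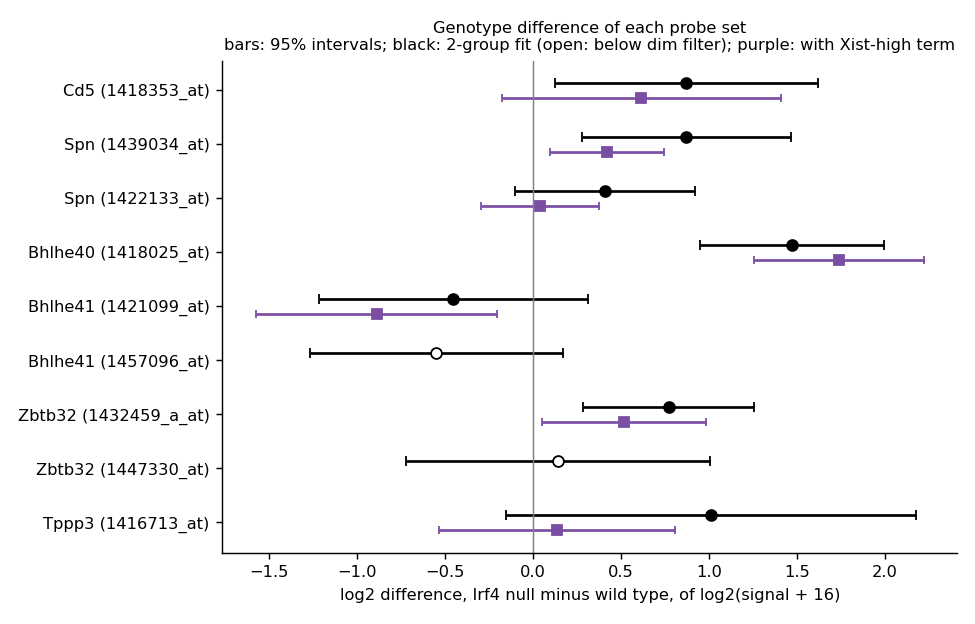
Difference between genotypes (log2, Irf4 null minus wild type) of each member probe set with its 95% interval, in the 2-group fit (black, open for probe sets below the dim filter) and with Xist-high as a term (purple). Bhlhe40 lies at 1.47 and 1.74, whereas Tppp3 moves from 1.01 to 0.14 and the dimmer tested Spn probe set from 0.41 to 0.042.

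Cd5, whose product tempers antigen receptor signals and defines B-1a cells, did not pass the test. It read 93.5, 100, 154 and 89.3 in wild type. It read 109, 229, 436 and 169 in Irf4 null. Irf4 null arrays 2, 3 and 4 stood above all wild-type arrays, but Irf4 null array 1 lay inside the wild-type range. The difference was 0.87 ± 0.34 (SE), with a 95% interval of 0.13 to 1.62 (limma, adjusted p = 0.21). Without Irf4 null array 3, which was the brightest, it was 0.54 (adjusted p = 0.376). With Xist-high in the model it was 0.62 ± 0.36 (adjusted p = 0.51). Within the Xist-high arrays it was -0.0058 (adjusted p = 0.996) and within the Xist-low arrays 1.24 (adjusted p = 0.372).

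The 3 genes whose pattern was most like that of Cd5 among 11802 were Cd3d (r = 0.985), Cd3g (r = 0.983) and Cd247 (r = 0.973), which all encode chains of the T cell receptor complex. Cd3g ordered the 8 arrays exactly as Cd5 did (Spearman rho = 1). Of 16 T cell markers 13 were tested and none was called (limma), with Cd3g at 1.36 ± 0.46 (adjusted p = 0.147) and Cd3d at 1.53 ± 0.58 (adjusted p = 0.196). The mean of the list stood at 7.22, 7.87, 7.89 and 7.12 (log2) on wild-type arrays 1 to 4 and at 7.21, 8.48, 9.61 and 8.07 on Irf4 null arrays 1 to 4. Irf4 null array 3 was the highest for Cd5 and for this list alike. Wild-type array 3 was the highest of its genotype for both, but for the list wild-type array 2 was close to it. Summed over the list the signal was 7308 to 9027 in wild type and 7154 to 18600 in Irf4 null, and no marker was at 0 on any array. Much of that sum is Cd2, a bright adhesion gene that ran the other way (-0.23, adjusted p = 0.505) and is named here after its values were seen. Without Cd2 the sum was 1428 to 3319.8 in wild type, with the highest value on array 2, and 1675 to 12721 in Irf4 null. The part of T cells in the Cd5 difference was not tested beyond the next fit. With the T cell mean as a covariate the Cd5 difference was 0.26 (limma, adjusted p = 0.656).

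**Figure D3:**
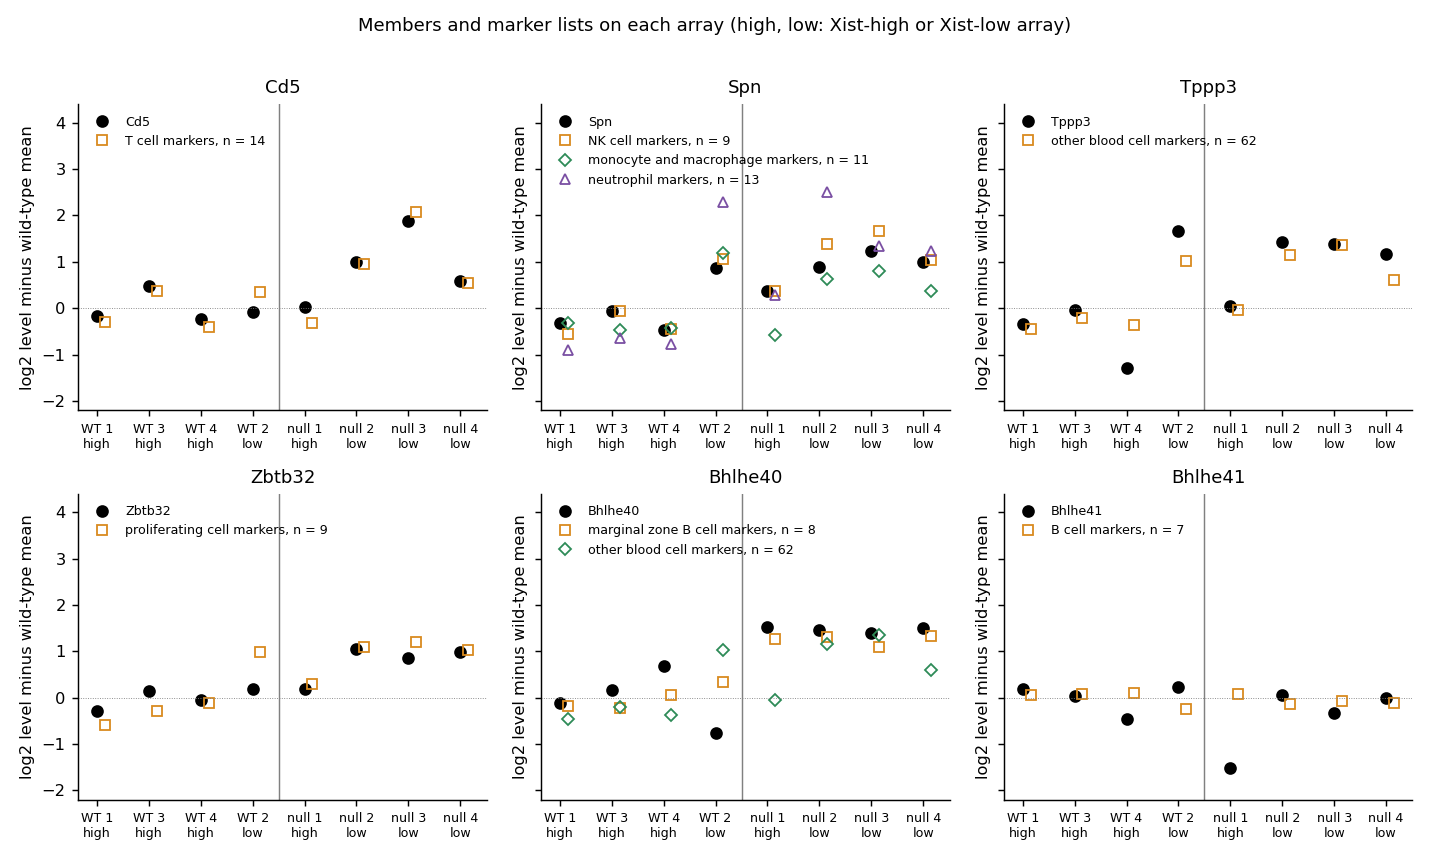
Level of each member's brightest probe set (black) and mean of marker lists (open symbols) on each array, as log2 minus the wild-type mean, with arrays ordered by genotype and then by Xist and a vertical line between genotypes. Cd5 and the T cell markers are both highest on Irf4 null array 3, and Bhlhe40 lies higher on all Irf4 null than on all wild-type arrays.

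Spn, the gene of the mucin-like surface protein CD43, was higher on most Irf4 null arrays but did not pass the test either. On the brighter probe set the wild-type arrays stood at 639.5, 1477, 768 and 577, and the Irf4 null arrays at 1053, 1498, 1922 and 1613. Wild-type array 2 lay among the Irf4 null arrays, and the other 3 wild-type arrays lay below all of them. The difference was 0.87 ± 0.27 (SE), with a 95% interval of 0.28 to 1.47 (limma, adjusted p = 0.114). On the dimmer Spn probe set wild-type signals were 187, 361, 197 and 162 and Irf4 null signals 217, 331, 335 and 304, and there wild-type array 2 was the highest of all 8. Its difference was smaller, at 0.41 ± 0.23 (adjusted p = 0.411). Without wild-type array 2 both passed, the brighter at 1.16 (adjusted p = 0.00308) and the dimmer at 0.64 (adjusted p = 0.0438).

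Spn signals followed the Xist split of the arrays. With genotype in the same fit, the brighter probe set was lower by 0.90 ± 0.15 on Xist-high than on Xist-low arrays (limma, adjusted p = 0.0107) and the dimmer one lower by 0.74 ± 0.15 (adjusted p = 0.0328). In the same fit the genotype difference of the brighter probe set was 0.42 ± 0.15 (adjusted p = 0.21) and that of the dimmer one 0.042 ± 0.15 (adjusted p = 0.942). Within the Xist-high arrays the difference was 0.67 for the brighter (adjusted p = 0.148) and 0.24 for the dimmer (adjusted p = 0.773), and within the Xist-low arrays 0.17 (adjusted p = 0.792) and -0.15 (adjusted p = 0.846). Without wild-type array 2, the only Xist-low wild-type array, the Xist difference of the brighter probe set was -0.66 and did not pass (adjusted p = 0.381). The genes most like Spn were Myo1f, a myosin of leukocytes (r = 0.992), Fcgr1, the high-affinity IgG receptor of monocytes and macrophages (r = 0.982), and Ctsw, a protease of NK cells and cytotoxic T cells (r = 0.981). None of these 3 was called for genotype, with adjusted p of 0.11, 0.125 and 0.133.

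Markers of cells that carry CD43 are given beside Spn. Of 9 NK cell markers 2 were called higher in Irf4 null, against 2.67% of all 11802 genes, and 6 were called lower on Xist-high arrays. The 2 were the pore-forming protein gene Prf1 (1.33, limma adjusted p = 0.0122) and the receptor gene Klre1 (1.24, adjusted p = 0.0129). None of 13 neutrophil, 11 monocyte and macrophage and 13 T cell markers was called for genotype (limma), while 9, 7 and 1 of them were called lower on Xist-high arrays, against 2.89% of all genes. The mean of the NK cell list was 7.66 to 9.27 (log2) in wild type and 8.58 to 9.87 in Irf4 null, with summed signals of 2505 to 8033 and 4573 to 13886. Neutrophil sums were 6148 to 58184 and 11993 to 79653, and monocyte and macrophage sums 11253 to 38208 and 15832 to 33117. The part of these cells in the Spn difference was not tested beyond the next fit. With the mean of all 62 markers of other blood cells as a covariate, the genotype difference was 0.34 (adjusted p = 0.329) for the brighter Spn probe set and -0.021 (adjusted p = 0.975) for the dimmer one.

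Tppp3, which encodes a protein that promotes tubulin polymerisation, had the largest spread of the 7 tested probe sets among wild-type arrays. It read 103, 455, 129 and 45.4 on wild-type arrays 1 to 4 and 138, 388, 377 and 321 on Irf4 null arrays 1 to 4. The wild-type signals spanned a 10.02-fold range that covered every Irf4 null array, and their SD of 1.22 (log2) was reached or exceeded by few probe sets, 99.6% being at or below it. The difference between genotypes was 1.01 ± 0.53 (SE), with a 95% interval of -0.15 to 2.18 (limma, adjusted p = 0.37). Without wild-type array 2 it was 1.56 and passed (adjusted p = 0.0261). By Xist the arrays separated without overlap: 45.4 to 138 on the 4 Xist-high and 321 to 455 on the 4 Xist-low arrays.

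With both terms in the fit Tppp3 was lower by 1.75 ± 0.30 on Xist-high arrays (limma, adjusted p = 0.0143), and its genotype difference was 0.14 ± 0.30 (adjusted p = 0.9). That difference was 0.60 within the Xist-high (adjusted p = 0.689) and -0.32 within the Xist-low arrays (adjusted p = 0.633). Without wild-type array 2 the Xist difference was -1.29 and did not pass (adjusted p = 0.467). With the marker mean of other blood cells as a covariate the genotype difference was -0.0092 (adjusted p = 0.995). The genes most like Tppp3 were the stress-response gene Nupr1 (r = 0.989), the semaphorin gene Sema4a (r = 0.987) and Pxylp1, a phosphatase gene of proteoglycan synthesis (r = 0.987), and none of them was called for genotype, with adjusted p of 0.328, 0.323 and 0.482.

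In all, 3 of the 7 tested probe sets, both of Spn and that of Tppp3, were called lower on Xist-high arrays, against 1.86% of all probe sets, and Bhlhe40 was not (0.53 ± 0.22 higher there, adjusted p = 0.326). Whether the genotype difference itself changed with Xist was tested by an interaction, which rests on 1 array in 2 of the 4 combinations. No member passed, and neither did any other of the 27022 probe sets (limma, 0 called, 7.54% at an unadjusted p below 0.05). The smallest member p was that of Bhlhe40, whose difference was smaller by 0.94 ± 0.35 on Xist-high arrays (adjusted p = 0.582). For Tppp3 and the dimmer Spn probe set, Irf4 null array 1 lay above all 3 Xist-high wild-type arrays, while Irf4 null arrays 2, 3 and 4 lay below the Xist-low wild-type array.

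**Figure D4:**
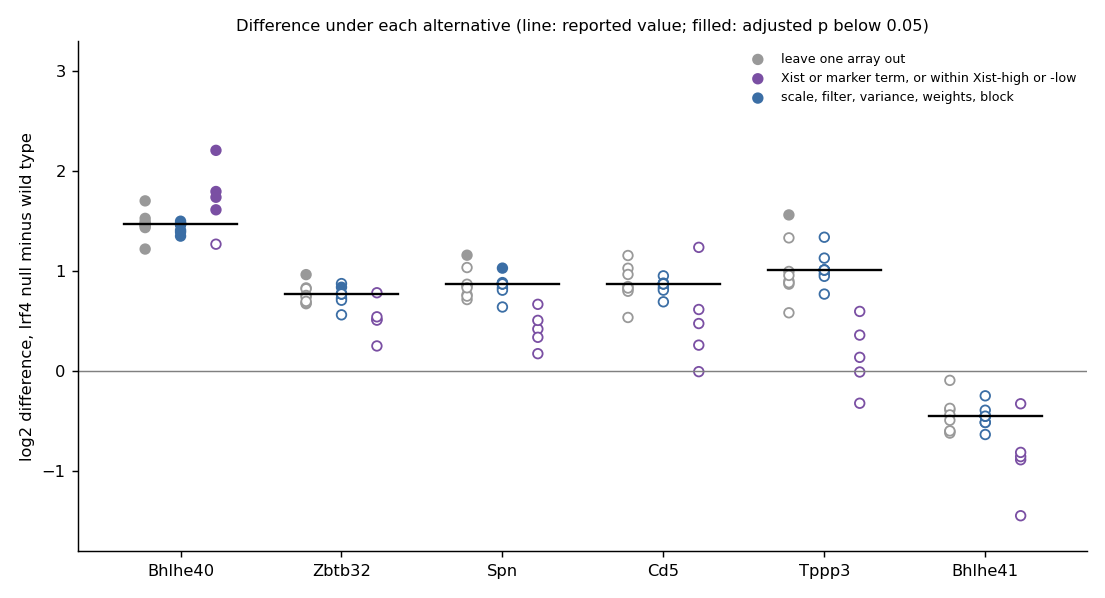
Genotype difference (log2) of each gene's brightest probe set under each alternative, with a line at the reported value, grey for each array left out, blue for other scales, filters and models, purple for fits with Xist or marker terms or within Xist-high or Xist-low arrays, and filled points for an adjusted p below 0.05. Bhlhe40 is filled in all but 1 setting and stays between 1.22 and 2.21, while Tppp3 ranges from -0.32 to 1.56.

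Other genes tied to B-1 cells did not move together. Of 19 such genes 16 were tested, 2 were called higher and 0 lower, against 2.67% and 1.7% of all 11802 genes, and their median difference was 0.29. With the Xist-high term the median was 0.067 and 2 were called higher, against 1.97% of all genes. Plscr1, a phospholipid scramblase induced by interferon, rose (limma, adjusted p = 0.00209) from a mean signal of 331 to 951. Il10, the cytokine that regulatory B cells secrete, rose by 1.96 ± 0.33 (adjusted p = 0.00877) from a dim 41.8 to 193. Its wild-type mean lay below the dim limit of 42.9, so it passed the filter only through the Irf4 null arrays. Its call, the size of its difference and its part in the counts of genes called higher are therefore uncertain. Signalling genes that set the number of B-1 cells, such as those of the antigen receptor pathway, gave 0 calls among 14 tested (limma, median -0.049). Cd72, an inhibitory coreceptor, was at 0.52 ± 0.15 (adjusted p = 0.0988) and the adaptor gene Bcl10 at -0.24 ± 0.07 (adjusted p = 0.104). In the fit with Xist-high, Cd72 was at 0.69 and passed (limma, adjusted p = 0.033).

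Of 7 genes that follicular B cells express more than B-1 cells, 5 were tested, with a median of -0.27. Of the 5, 1 was called lower, against 1.7% of all 11802 genes. It was Fcer2a, the gene of CD23, which marginal zone B cells also express weakly. Fcer2a fell by 1.17 ± 0.17 (limma, adjusted p = 0.003), with wild-type arrays at 7240.0 ± 715 (SD) and Irf4 null arrays at 3293 ± 907. The marginal zone markers with the smallest p were Dtx1 (1.44), a Notch target, Cd1d1 (1.14), which presents lipids to NKT cells, Plxnd1 (2.14), a semaphorin receptor, and Myof (1.52), all called higher. Of 5 plasma cell genes tested, 3 were called lower, against 1.7% of all genes. Igha, the constant region of IgA, averaged 6531 in wild type and 34.4 in Irf4 null, and Jchain, which joins IgA and IgM into polymers, 5064 and 43.6 (limma, adjusted p = 2.42e-05 and 8.04e-05). Sdc1, the gene of CD138, averaged 410.0 and 47.6 (adjusted p = 0.00137). No fold is given for these 3 genes, since their Irf4 null means lie near the dim limit of 42.9.

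The remaining lists cover cells that could be left in the preparations. No gene of the dendritic cell list (4 tested, Xcr1 at 0.47 and Zbtb46 at 0.34, adjusted p = 0.48 and 0.652) or of the erythroid list (4 tested, Epb42 at 0.59 and Klf1 at 0.33, adjusted p = 0.727 and 0.778) was called by limma. Of 6 platelet genes 1 was called higher, against 2.67% of all 11802 genes. It was Ppbp, at 0.81 ± 0.19 (limma, adjusted p = 0.0415). Among the neutrophil and the monocyte and macrophage markers the smallest p were those of Cxcr2 (0.71, adjusted p = 0.298), Prtn3 (1.75, adjusted p = 0.31), Adgre1 (0.88, adjusted p = 0.109) and Fcgr1 (1.28, adjusted p = 0.125).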

How the data were processed

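RNA of 8 B cell preparations, 6 µg each, was hybridised to 1 Affymetrix array per sample. Each deposited value is a linear intensity of 1 probe set. The authors obtained it by MAS5, as the submitters' processing notes state. The sources used here give neither its version nor its scaling target. The mean without the highest and lowest 2% was 500.003 on every array, so no further scaling was applied. No array pair held identical values, and correlations between arrays were 0.960 to 0.982. The number of arrays limits the precision.

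After removal of 64 control probe sets, values were transformed to log2(signal + 16) and the lowest 40% by mean over all 8 arrays (up to a signal of 42.9) were dropped. The genotype difference was fitted in R 4.3.3 by limma 3.58.1 (lmFit, eBayes with trend) and adjusted by Benjamini-Hochberg over 27022 probe sets, threshold 0.05. Probe sets below the filter were fitted without it. Names came from the platform annotation (34958 probe sets with 1 symbol, 932 with several, 9211 with none), updated through gene identifiers of GRCm38.p6 for 34754. For calls and differences, genes in lists were represented by their brightest tested probe set. List means and sums used the brightest probe set of each gene, tested or not.

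Members, gene lists and the Xist split (signal over 1000) were chosen with earlier results of these data known. Named are all member probe sets, Irf4, Xist, Eif2s3y, up to 4 called genes per list or the 2 with the smallest p, and for each member the 3 genes with the highest Pearson r. The Xist difference, from the fit with genotype and Xist-high as terms, was added after values were seen. Alternatives were the pseudocount, filter, normalization, variance model, array weights, replicate number as a block, Xist-high or marker means as terms, fits within Xist-high and Xist-low arrays, each array left out, and the mean of a gene's probe sets. The fit was tested on simulated data with known changes. It recovered 28.4% of 1.5-fold, 59.7% of 2-fold and 87.9% of 4-fold changes, with 4 false among 121 called. A true change of such a size can therefore go uncalled. Figures were drawn with matplotlib 3.10.9.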

Additional observations from a re-analysis of the deposited data

Results flagged for a closer look

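Each of the 9 probe sets was checked within each genotype for 1 array far from the other 3, which chance alone gives in about 1 of 20 groups. Cd5 on wild-type array 3, at 153.9, stood apart from the other wild-type arrays (89.3 to 100). The T cell marker mean was also highest in wild type on that array, at 7.89 (log2). Wild-type array 2 was close at 7.87, although Cd5 read 100 there. Without Cd2 the summed T cell signal was higher on wild-type array 2 (3320) than on wild-type array 3 (2709). The dim second Bhlhe41 probe set read 47.1 on wild-type array 2 and at most 7.62 on the other wild-type arrays. That probe set lay below the dim filter and was not tested.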

How the results depend on the processing

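The fall of Irf4 kept its call under all 23 alternatives. The Bhlhe40 rise kept its call in 22 of 23, at 1.22 to 1.70 with each array left out, and lost it within Xist-high arrays (1.27), which hold 1 Irf4 null array, assumed to vary like the others. Spn (brighter probe set) and Zbtb32 passed with array weights, at 1.03 and 0.84. With each array left out they ranged from 0.72 to 1.16 for Spn, 0.67 to 0.97 for Zbtb32, 0.54 to 1.16 for Cd5, 0.58 to 1.56 for Tppp3 and -0.62 to -0.093 for Bhlhe41. Signs turned for Cd5 within Xist-high arrays (-0.0058), for Tppp3 within Xist-low arrays (-0.32) and with the other-cell marker mean (-0.0092), and for the dimmer tested Spn probe set in the same 2 settings (-0.15 and -0.021). The Xist difference of Cd5 turned without Irf4 null array 1 (from -0.51 to 0.11). Without that array all Irf4 null arrays are Xist-low, so the estimate rests on wild-type array 2 as the only Xist-low array of wild type. The Xist difference of Cd5 ranged from -1.14 to 0.11 over the arrays left out. The Xist difference lost its call without the variance trend and without wild-type array 2, for Tppp3 (adjusted p = 0.068 and 0.467) and for the brighter Spn probe set (0.0642 and 0.381). For the dimmer Spn probe set it lost its call in 7 of 14 alternatives. Without wild-type array 2 all wild-type arrays are Xist-high, so the Xist difference rests on Irf4 null array 1 as the only Xist-high array of Irf4 null. The mean of both Spn probe sets differed by 0.64 between genotypes (adjusted p = 0.186).

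The number of member probe sets called was 3 with array weights, 0 within Xist-high arrays and 1 to 4 with each array left out. Over all probe sets, 543 were higher and 407 lower. The counts were 355 and 200 without the variance trend and 1001 and 745 with array weights. They were 352 and 242 with the other-cell marker mean and 270 and 173 with the T cell mean as a covariate. Within Xist-high arrays they were 193 and 129, and within Xist-low arrays 62 and 55, with 4 arrays each. With the Xist-high term 256 were lower. With each array left out, 283 to 1297 were higher and 183 to 875 lower, the most without wild-type array 2. The fits within Xist-high or Xist-low arrays use fewer arrays; for the other changes the cause was not tested.

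The replicate numbers gave no clear pairing of the arrays. Deviations from the genotype means correlated at 0.24, 0.28, -0.030 and -0.081 for numbers 1 to 4. Of 8 arrays 4 correlated best with their own number. With the replicate block 690 probe sets were higher and 478 lower, and Bhlhe40 alone of the members was called (1.47). A common median moved the median of all probe sets from 0.0030 to -0.060 and gave 384 higher and 419 lower. Under a stricter filter on dim signals Cd5, Bhlhe41 and Zbtb32 were not tested, and the probe sets below the reported filter were fitted only without one.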
